A study of Homo sapiens with 6 samples.

Results

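The transcripts described here encode the DNA replication machinery: 47 genes, chosen by name, out of 30960 genes in the table. All 47 were found by their symbol, and all 47 passed the filter on low values that left 14275 genes to test. They were measured by RNA sequencing in HEK293, a human cell line derived from embryonic kidney. The PKI group carried a plasmid for GFP fused to residues 1 to 24 of PKI (GFP-PKI1-24), and the control group, inPKI, carried the matching plasmid for GFP-inPKI1-24. Each group held 3 libraries, A, B and C. Both groups received 158 ng of plasmid per square centimetre with a Lipofectamine reagent, and RNA was taken 48 h later. The design text speaks of transduction and the protocol of transfection. The labels name no sorting of cells for GFP, and the share of cells that took up the plasmid is not given.

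Replication is prepared in G1, when the origin recognition complex (ORC), CDC6 and CDT1 load the MCM2-7 helicase onto origins as an inactive double ring. In S phase CDC45 and the GINS complex join MCM2-7 to form the active helicase, and DNA polymerases alpha, delta and epsilon copy the strands. RFC loads the PCNA clamp that keeps polymerases delta and epsilon on the template, RPA coats single-stranded DNA, and FEN1 and LIG1 join the Okazaki fragments. Many of these genes are transcribed at the G1 to S transition under E2F factors, so their mRNA levels in a growing culture are widely read as a measure of cycling. PKI proteins bind and block the catalytic subunit of protein kinase A, the cAMP-dependent kinase, and the comparison asks how the mRNA of the replication genes stood in cells with the PKI peptide against cells with inPKI.

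The promoters of these genes are shown because E2F sites are what many of them are known to share. RefSeq promoters on GRCh38.p14, each running from 250 bases before to 50 bases after a start site, were matched to 41 of the 47 genes. POLD3, GINS4, RPA2, RPA3, MCM4 and MCM5 had no entry in the table. The letters TTTCCCGC, TTTGGCGC, TTTCGCGC and TTTGCCGC were searched on both strands, and hits that overlap each other were all counted. At least 1 of these words stood in a promoter of 21 of the 41 genes (51.2%), against 1090 of all 27305 genes with a promoter (3.99%). The cAMP response element TGACGTCA, the palindrome that CREB binds, stood in 4 of the 41 (9.76%), namely DTL, RFC1, MCM10 and RFC3, against 614 of all 27305 (2.25%). A match is a run of letters and not a measured binding site.

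Promoter stretches of 7 genes that the results below turn on are given from 150 bases before to 30 bases after the start. They are written 5′ to 3′ on the strand of the gene, with capitals for E2F words that lie wholly within the stretch. POLE and POLA1 lay higher in PKI, PCNA and GINS2 lay lower, MCM6 carries overlapping copies, and ORC5 and FEN1 lay lower and hold none of the words.
POLE, chr12:132687313-132687492, minus strand: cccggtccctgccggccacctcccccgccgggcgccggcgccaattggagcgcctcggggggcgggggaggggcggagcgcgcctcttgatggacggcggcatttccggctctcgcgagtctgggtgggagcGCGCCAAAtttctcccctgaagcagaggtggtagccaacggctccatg
POLA1, chrX:24693768-24693947, plus strand: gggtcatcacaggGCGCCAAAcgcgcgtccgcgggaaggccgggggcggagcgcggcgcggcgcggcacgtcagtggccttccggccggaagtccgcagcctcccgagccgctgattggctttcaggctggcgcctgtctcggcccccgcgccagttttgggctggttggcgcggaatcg
PCNA, chr20:5126593-5126772, minus strand: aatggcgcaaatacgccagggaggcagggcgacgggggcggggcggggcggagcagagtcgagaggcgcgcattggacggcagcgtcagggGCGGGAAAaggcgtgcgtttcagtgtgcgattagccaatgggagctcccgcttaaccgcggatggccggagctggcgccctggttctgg
GINS2, chr16:85688925-85689104, minus strand: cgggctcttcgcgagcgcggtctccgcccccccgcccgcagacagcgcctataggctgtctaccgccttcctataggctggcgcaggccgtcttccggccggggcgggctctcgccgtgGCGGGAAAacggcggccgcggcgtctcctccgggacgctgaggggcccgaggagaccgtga
MCM6, chr2:135876414-135876593, minus strand: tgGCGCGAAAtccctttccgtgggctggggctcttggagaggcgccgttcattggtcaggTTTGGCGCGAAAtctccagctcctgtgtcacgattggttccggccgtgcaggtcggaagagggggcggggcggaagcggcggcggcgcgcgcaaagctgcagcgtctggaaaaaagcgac
ORC5, chr7:104207984-104208163, minus strand: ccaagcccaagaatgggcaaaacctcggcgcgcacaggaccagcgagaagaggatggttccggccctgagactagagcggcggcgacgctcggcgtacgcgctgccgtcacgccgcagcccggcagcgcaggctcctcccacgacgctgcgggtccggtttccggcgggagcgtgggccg
FEN1, chr11:61792761-61792940, plus strand: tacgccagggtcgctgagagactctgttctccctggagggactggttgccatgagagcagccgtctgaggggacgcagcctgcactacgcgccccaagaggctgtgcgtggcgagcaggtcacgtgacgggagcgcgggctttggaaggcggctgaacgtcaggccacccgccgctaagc
In POLE, the catalytic subunit of polymerase epsilon, the word began 18 bases before the start, and in POLA1 it began 137 bases before it. In PCNA and GINS2 it began 59 and 31 bases before the start. MCM6 held 3 words wholly within the stretch, 2 of which overlap. A 4th, TTTGGCGC, began 152 bases before the start, ahead of the stretch, and ran into the first capitals. The log2 change, PKI minus inPKI, had a median of -0.029 over the 21 genes with an E2F word and -0.034 over the 20 without, and 16 of 21 and 18 of 20 lay below 0.

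Reads recovered from the deposited CPM (read counts scaled to a common library size) ran from 17244715 to 23589438 per library in PKI and from 18707086 to 21387137 per library in inPKI. PKIA, the gene for the PKI whose residues the plasmid carries, measured 43.9 ± 1.96 CPM in PKI and 9.68 ± 1.46 CPM in inPKI (SD, n = 3 each), which follows the labels; reads from the plasmid and from the cells' own gene cannot be told apart. All 6 HEK293 markers passed the filter, with VIM the highest at 605 CPM in PKI and 638 CPM in inPKI and PAX2 the lowest at 1.004 CPM in PKI and 1.034 CPM in inPKI. Their log2 changes ran from -0.19 for NEFL to 0.16 for KRT8, the groups not overlapping for these 2, and limma called 0 of the 6. At an unadjusted p below 0.05 NEFL alone lay lower, and DESeq2 called it with an adjusted p of 0.0471. Of the markers of other cells, DCN and CD3E were at 0 in every library, 0 of 4 leukocyte and 0 of 3 endothelial markers passed the filter, and the summed fibroblast markers ran from 19.3 to 22.6 CPM in PKI and from 18.7 to 21.0 CPM in inPKI. The summed keratinocyte markers ran from 14.9 to 17.7 CPM in PKI and from 14.9 to 39.0 CPM in inPKI. PKI C stood apart: the 13 mitochondrial mRNAs took 3.80% of its summed CPM, against 2.67% to 2.83% in PKI A and B and 2.62% to 2.87% in inPKI. Its 10 most abundant genes took 6.38%, against 4.82% to 4.93% in PKI A and B and 4.65% to 4.86% in inPKI. PKI C also had the fewest recovered reads of all libraries, 17244715, and the lowest summed CPM, 754299. PKI B had the most of both, 23589438 reads and a summed CPM of 785007. For many of the genes described, log2 changes are therefore also given without PKI C. Whether each library had its own culture is not said in the labels, and the p-values describe the spread of these 6 libraries only, and that spread may be technical.

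The replication genes were well expressed in both groups. Their levels in single libraries ran from 16.4 CPM for POLE2, an accessory subunit of polymerase epsilon, to 546 CPM for MCM7, which is 401 to 16398 reads. Compared per kilobase of transcript, MCM7 led with 174 CPM per kb in PKI and 176 CPM per kb in inPKI, and PCNA followed with 151 CPM per kb in PKI and 164 CPM per kb in inPKI. The lowest was ORC4, a subunit of the origin recognition complex, at 4.29 CPM per kb in PKI and 4.26 CPM per kb in inPKI. By this measure, which divides by the length of 1 annotated transcript per gene, subunits of the same complex had levels far apart. MCM6 stood at 43.2 CPM per kb in PKI and 44.7 CPM per kb in inPKI, well below MCM7 of the same ring. ORC6, at 29.1 CPM per kb in PKI and 30.1 CPM per kb in inPKI, stood well above ORC4. Much of that gap came from the lengths used, 1.63 kb for ORC6 and 6.71 kb for ORC4. In CPM ORC6 averaged 47.3 in PKI and 48.9 in inPKI, and ORC4 averaged 28.8 in PKI and 28.6 in inPKI. The order of the 47 levels was nearly the same in both groups (Spearman 0.998 over 47 genes, which share the 6 libraries), and no gene moved by more than 3 places.

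**Figure D1:**
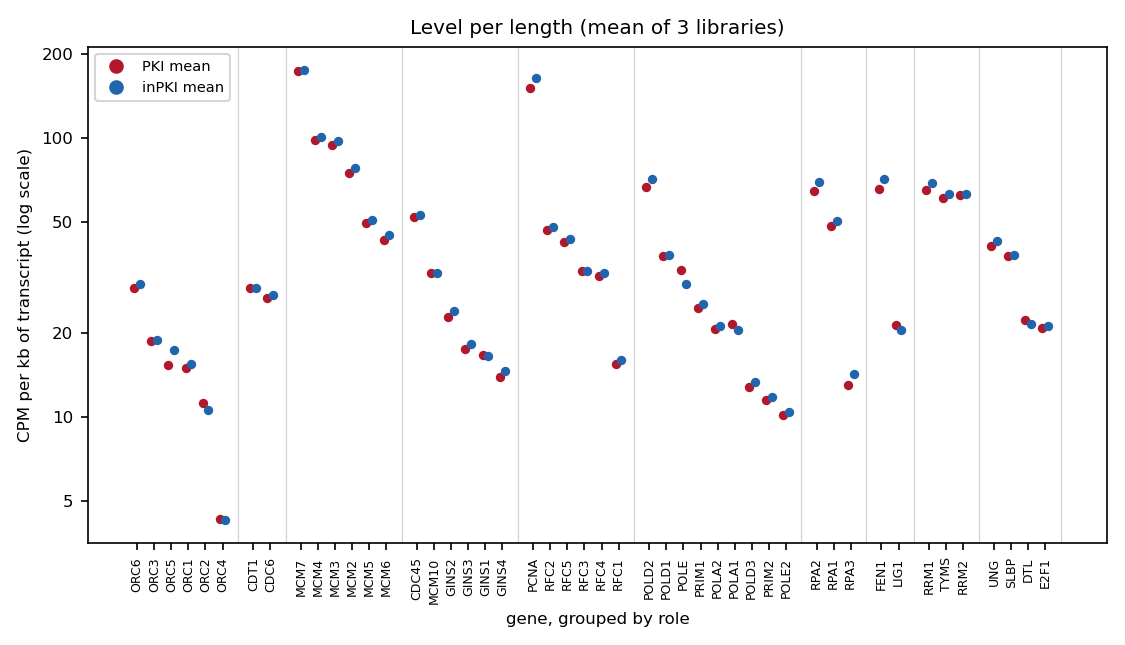
Mean level (n = 3 libraries) of each of the 47 replication genes in CPM per kb of transcript on a log axis, grouped by role, with PKI left of inPKI. MCM7 at 174 in PKI and 176 in inPKI and PCNA stand at the top and ORC4 at the bottom, and the 2 means of a gene lie close together against the spread between genes.

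Between PKI and inPKI none of the 47 genes changed at an adjusted p below 0.05 with limma, whose adjusted p-values for them ran from 0.222 to 0.984. Over all 14275 genes tested 18 were called (0.126%), 14 higher and 4 lower. At an unadjusted p below 0.05 there were 2 replication genes, POLE higher and ORC5 lower, against 13.7% of all genes tested. edgeR called 0 of the 47, with a lowest adjusted p of 0.222, where it called 16 of all 14275 genes tested. DESeq2 called 1 of the 47, POLE, with an adjusted p of 0.0205. That is 2.17% of the 46 replication genes to which DESeq2 gave an adjusted p, against 3.88% of all 6526 genes to which it gave one. The groups did not overlap with PKI higher in 2 genes, POLE and POLA1 (10.9% of all genes tested), or with PKI lower in 2 genes, RPA3 and POLD3 (8.88% of all genes tested). Each of these counts holds at most 2 of the 47 genes, each time a smaller share than over all genes, and the difference was not tested.

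The intervals say how large a change these libraries leave room for. For 46 of the 47 genes the 95% interval of the log2 change lay within 1.25-fold in either direction (0.32 on the log2 scale), and the exception, ORC5, had a lower bound of -0.33. All 47 upper bounds lay below 1.25-fold higher, the highest being 0.28 for POLE, and 45 intervals held 0. The median size of the log2 change, whatever its sign, was 0.047 over the 47 genes and 0.081 over all genes tested, beside a median standard error of 0.060 for the 47. By sign, 40 of the 47 lay below 0 and 7 above, with a median of -0.036, while 52.6% of all genes tested lay below 0 with a median of -0.0074.

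**Figure D2:**
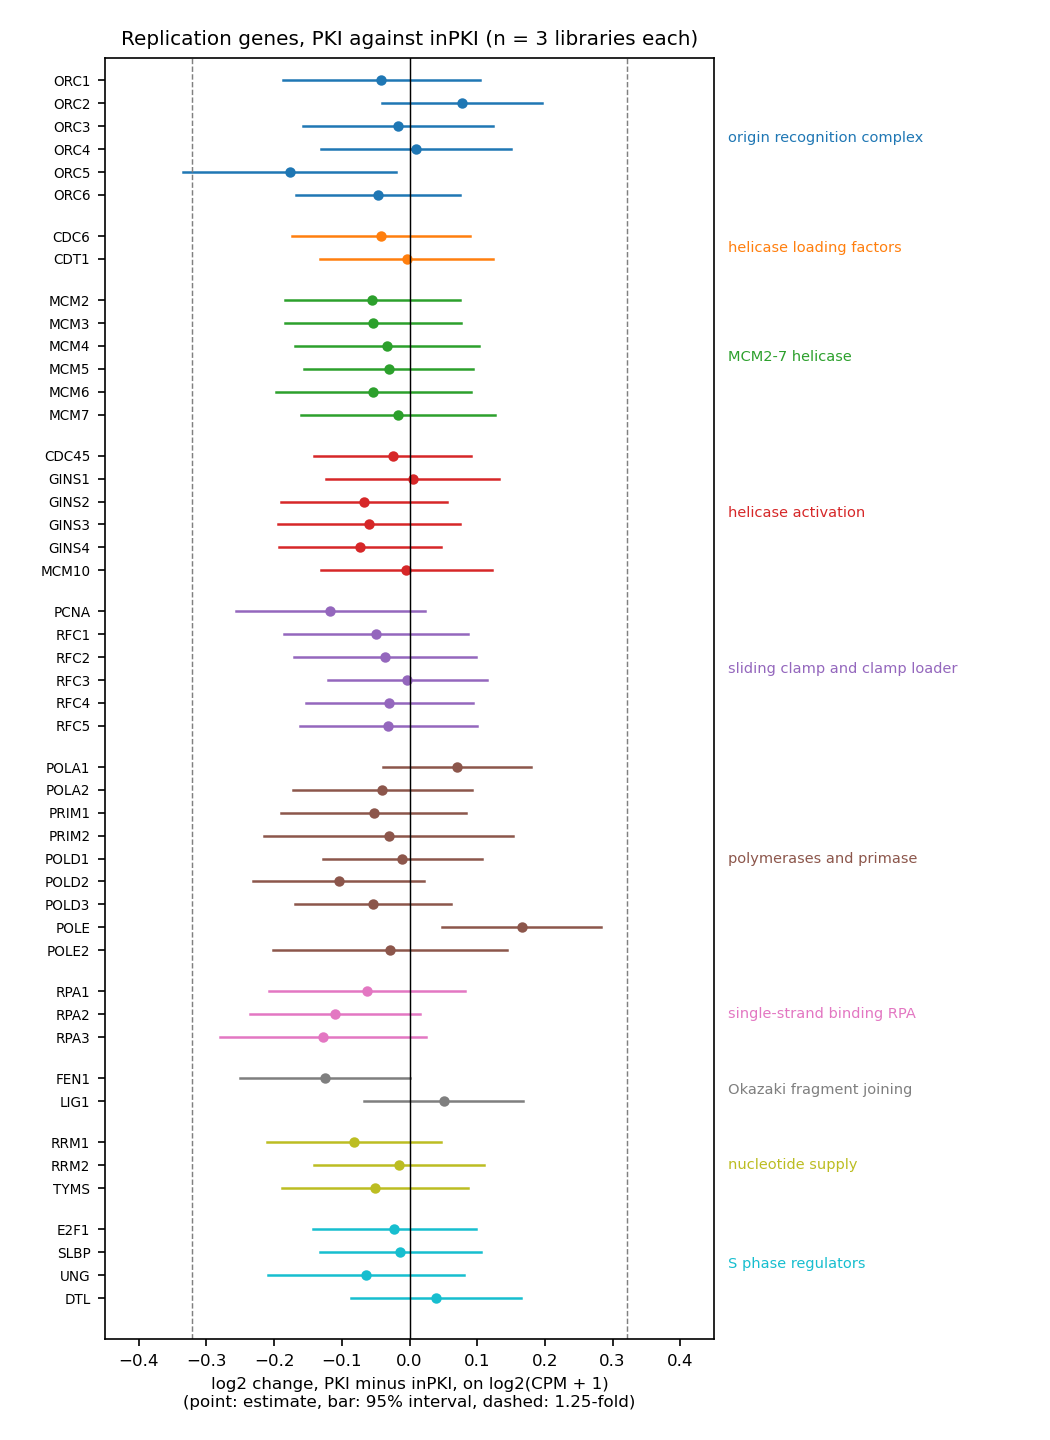
Log2 change (PKI minus inPKI, on log2(CPM + 1)) of each replication gene with its 95% interval, grouped by role; the dashed lines mark 1.25-fold. POLE at 0.17 and ORC5 at -0.18 are the only 2 whose interval misses 0, and only the interval of ORC5 crosses a dashed line.

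The lean below 0 was largest in PKI C. In PKI C 39 of the 47 genes had the lowest value of all 6 libraries, and the median of the 47 was -0.145 against the inPKI mean, where all genes tested had a median of -0.050 and 39.4% of them were lowest in PKI C. In PKI B 25 of the 47 had the highest value of all 6, with a median of 0.050, where all genes tested had 0.025. In PKI A the median of the 47 was -0.0058, where all genes tested had 0.0071. The inPKI libraries had medians of 0.017, 0.0047 and -0.014. The 47 genes summed to 5637, 5850 and 5160 CPM in PKI, against 5732, 5671 and 5603 CPM in inPKI. PKI A and C thus lay on either side of the lowest inPKI sum and PKI B lay above all 3, so the groups overlapped. As a share of the summed CPM the 47 genes took 0.720%, 0.745% and 0.684% in PKI, against 0.732%, 0.727% and 0.724% in inPKI. Without PKI C the median was 0.026, 15 of the 47 lay below 0 (43.8% of all genes tested), and limma again called 0 of the 47. Without PKI B the lean was larger, with a median of -0.078 and 42 of the 47 below 0, and limma called 0 of the 47. The part of the mitochondrial share, recovered reads or summed CPM of PKI C in its low values was not tested. In bulk RNA fewer cells in S phase and less of these mRNAs per cell cannot be told apart.

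**Figure D3:**
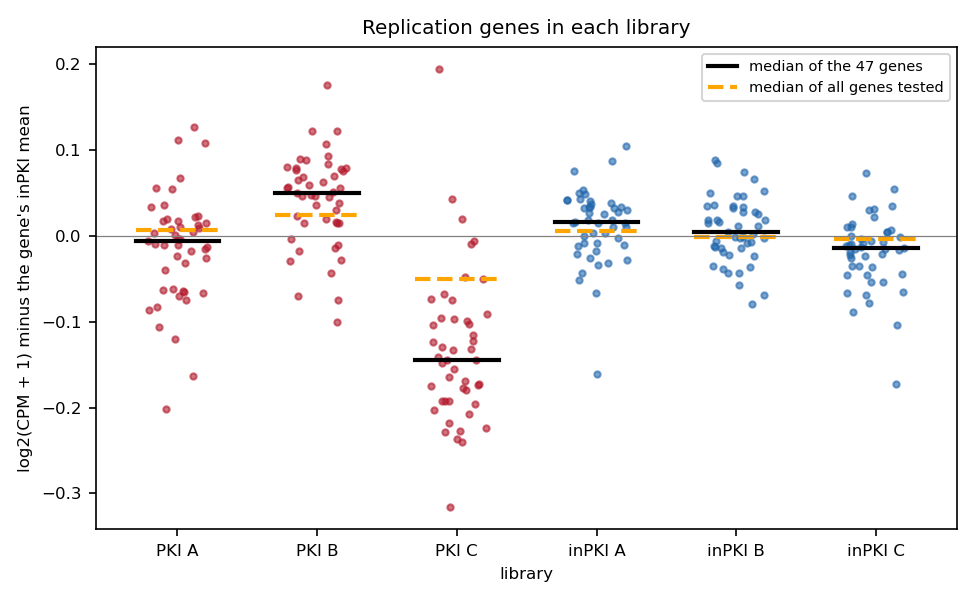
Each point is 1 of the 47 replication genes: its log2(CPM + 1) in a library minus its inPKI mean, with the median of the 47 (black) and of all genes tested (dashed). PKI C is centred at -0.145 and PKI B at 0.050, and the other 4 lie near 0.

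Of the genes that mark and license origins, 0 of 6 ORC subunits and 0 of 2 loading factors passed the test. ORC2, an ORC subunit, measured 49.3, 48.3 and 47.1 CPM in PKI, against 44.0, 47.2 and 45.8 CPM in inPKI. ORC5, an ATP-binding ORC subunit, measured 29.5, 33.8 and 27.2 CPM in PKI, against 34.9, 33.1 and 34.4 CPM in inPKI. PKI A and C were the low libraries for ORC5 while PKI B lay among the inPKI values, and for ORC2 only PKI C fell within the inPKI range. The log2 change was 0.077 ± 0.055 (SE) for ORC2 with a limma adjusted p of 0.554, and -0.18 ± 0.074 for ORC5 with a limma adjusted p of 0.316. Both kept their sign without PKI C, with ORC2 at 0.094 and ORC5 at the weaker value of -0.11. The smallest member of the complex, ORC6, gave 46.8, 46.6 and 48.6 CPM in PKI, against 50.05, 46.2 and 50.5 CPM in inPKI. ORC4 gave 28.3, 30.5 and 27.6 CPM in PKI, against 28.4, 30.1 and 27.3 CPM in inPKI. Both overlapped, with log2 changes without PKI C of -0.066 for ORC6 and 0.039 for ORC4, as did ORC1 (47.5 ± 4.32 CPM in PKI and 48.8 ± 2.11 CPM in inPKI) and ORC3 (46.7 ± 3.06 CPM in PKI and 47.2 ± 3.08 CPM in inPKI). Summed, the 6 ORC mRNAs measured 249 ± 11.1 CPM in PKI and 253 ± 0.767 CPM in inPKI (SD, n = 3 each).

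The loading factors were low in PKI C and level in the other libraries. CDC6, the ATPase that joins ORC at the origin, measured 134, 135 and 116 CPM in PKI, against 133, 135 and 128 CPM in inPKI. CDT1, which brings the MCM ring, measured 97.9, 98.6 and 85.8 CPM in PKI, against 92.0, 96.4 and 94.2 CPM in inPKI. For both genes PKI A and B lay within or above the inPKI values and PKI C lay below all of them. The log2 change of CDC6 was -0.042 ± 0.062 with all libraries (limma adjusted p 0.793) and 0.027 without PKI C, and that of CDT1 was -0.0042 with all libraries (limma adjusted p 0.984) and 0.060 without PKI C.

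The 6 helicase subunits followed the pattern of CDC6, and 0 of them passed the test. MCM2 measured 284, 281 and 250 CPM in PKI, against 285, 283 and 278 CPM in inPKI. MCM7 measured 528, 546 and 472 CPM in PKI, against 526, 513 and 523 CPM in inPKI. MCM6 measured 169, 173 and 143 CPM in PKI, against 170, 167 and 164 CPM in inPKI. In all 3 genes PKI C was the lowest library, and PKI A and B lay within or above the inPKI range. The 6 subunits summed to 1895, 1935 and 1686 CPM in PKI, or 1838 ± 134 CPM, and to 1883 ± 22.2 CPM in inPKI (SD, n = 3 each). All 6 log2 changes lay below 0, between -0.055 for MCM2 and -0.017 for MCM7, and without PKI C 0 of the 6 lay below 0, with a median of 0.024. The other subunits had log2 changes of -0.054 for MCM3, -0.034 for MCM4 and -0.031 for MCM5.

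Of the 6 genes that turn the loaded helicase on, 0 passed the test. CDC45, which binds MCM2-7 in the active helicase, measured 108, 115 and 104 CPM in PKI, against 114, 109 and 110 CPM in inPKI. GINS2 measured 63.6, 62.1 and 57.7 CPM in PKI, against 65.8, 65.2 and 61.1 CPM in inPKI. GINS4 measured 51.9, 56.6 and 51.1 CPM in PKI, against 55.9, 55.9 and 56.1 CPM in inPKI. These are subunits of the GINS complex; only PKI C was below the inPKI range for GINS2, and PKI A and C were below it for GINS4. Their log2 changes were -0.067 ± 0.057 for GINS2 and -0.073 ± 0.056 for GINS4, with limma adjusted p-values of 0.623 and 0.582. Without PKI C they were smaller in size, -0.026 for GINS2 and -0.045 for GINS4, and CDC45 stood at 0.0082 without it and -0.025 with it. GINS1 was at 54.1 ± 3.88 CPM in PKI and 53.9 ± 0.966 CPM in inPKI, GINS3 at 39.8 ± 2.79 CPM in PKI and 41.4 ± 1.19 CPM in inPKI, and MCM10, which helps to activate the helicase, at 104 ± 7.74 CPM in PKI and 104 ± 2.15 CPM in inPKI (SD, n = 3 each).

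Among the polymerases 1 gene had the smallest p of all 47. POLE, which encodes the catalytic subunit of the leading-strand polymerase and lies at chr12:132623753-132687365 on the minus strand (GENCODE 29, GRCh38), measured 257, 266 and 270 CPM in PKI, against 241, 225 and 241 CPM in inPKI. All 3 PKI libraries were above all 3 inPKI libraries, and PKI C, low for most other members, was the highest. The means were 265 ± 6.41 CPM in PKI and 236 ± 9.62 CPM in inPKI (SD, n = 3 each), and the log2 change was 0.17 ± 0.055 (95% interval 0.05 to 0.28). The limma adjusted p of POLE was 0.222, with 0.0205 (DESeq2) to 0.636 over the alternatives, so only DESeq2 called it. Its log2 change was 0.15 without PKI C and 0.088 with length and GC trends taken out.

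POLA1, the catalytic subunit of the priming polymerase alpha, at chrX:24693919-24996986 on the plus strand, measured 118, 122 and 114 CPM in PKI, against 111, 113 and 112 CPM in inPKI. Here too the groups did not overlap, but by under 1 CPM, with PKI C at 113.7 CPM and inPKI B at 113.1 CPM. The log2 change was 0.070 ± 0.051 with a limma adjusted p of 0.563, and 0.095 without PKI C. POLD2, an accessory subunit of polymerase delta, measured 155, 144 and 132 CPM in PKI, against 155, 153 and 155 CPM in inPKI. Only PKI A stood with the inPKI libraries, and the log2 change was -0.10 ± 0.059 with a limma adjusted p of 0.449. It depended on which PKI library entered, at -0.048 without PKI C and -0.16 without PKI A. POLD3, another subunit of polymerase delta and singled out after its values were seen, measured 49.8, 49.9 and 47.3 CPM in PKI, against 51.8, 50.4 and 50.4 CPM in inPKI. Its groups stood apart by under 1 CPM, and its spread was the only 1 among the 47 below what counting alone gives. The log2 change of POLD3 was -0.054 ± 0.054 with a limma adjusted p of 0.677, and -0.029 without PKI C.

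The other polymerase and primase genes overlapped. POLE2 measured 17.6, 19.1 and 17.5 CPM in PKI, against 16.4, 19.7 and 19.4 CPM in inPKI. POLD1, the catalytic subunit of polymerase delta, averaged 131 ± 7.85 CPM in PKI and 131 ± 1.49 CPM in inPKI, and POLA2 averaged 77.2 ± 6.46 CPM in PKI and 79.2 ± 1.69 CPM in inPKI (SD, n = 3 each). For both genes PKI B was the highest and PKI C the lowest of the 6 libraries. Without PKI C the log2 changes were 0.033 for POLD1 and 0.027 for POLA2, against -0.010 and -0.040 with it. The primase subunits, which make the RNA primers, averaged 34.2 ± 2.43 CPM in PKI and 35.5 ± 1.01 CPM in inPKI for PRIM1, and 26.6 ± 2.68 CPM in PKI and 27.2 ± 2.83 CPM in inPKI for PRIM2. Summed, the 9 genes gave 862 ± 29.6 CPM in PKI and 845 ± 7.59 CPM in inPKI, and this was the only role whose mean sum was higher in PKI. The higher sum came from POLE, at 265 CPM in PKI and 236 CPM in inPKI. By log2 change 7 of the 9 lay below 0, with a median of -0.031.

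None of the 6 clamp and clamp loader genes passed the test, and all 6 lay below 0. The clamp PCNA, at chr20:5114953-5126626 on the minus strand, measured 198, 225 and 192 CPM in PKI, against 224, 233 and 210 CPM in inPKI. PKI A and C lay below all inPKI libraries and PKI B between inPKI A and B. The log2 change was -0.12 ± 0.066 with a limma adjusted p of 0.445, and -0.072 without PKI C. RFC1, the large subunit of the clamp loader, measured 79.6, 78.5 and 67.3 CPM in PKI, against 79.0, 76.8 and 77.0 CPM in inPKI, so that only PKI C was below; the log2 change was -0.050 with it and 0.026 without it. The 4 smaller loader subunits had log2 changes of -0.036 for RFC2, -0.004 for RFC3, -0.030 for RFC4 and -0.031 for RFC5, and all 4 lay above 0 without PKI C.

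RPA, the heterotrimer on single-stranded DNA, had the lowest median of all roles, -0.110, or -0.051 without PKI C. RPA2 measured 115, 121 and 104 CPM in PKI, against 121, 121 and 125 CPM in inPKI. RPA3 measured 27.40, 27.3 and 24.2 CPM in PKI, against 31.05, 28.1 and 27.42 CPM in inPKI. For RPA3 the groups did not overlap, but PKI A and inPKI C were nearly equal. The log2 changes were -0.11 ± 0.059 for RPA2 and -0.13 ± 0.071 for RPA3, with limma adjusted p-values of 0.428 and 0.443. Without PKI C they were nearer to 0, at -0.051 for RPA2 and -0.072 for RPA3. RPA1, the largest subunit, averaged 210 ± 19.2 CPM in PKI and 219 ± 11.5 CPM in inPKI (SD, n = 3 each). Its log2 change was -0.063 with PKI C and 0.0018 without it.

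The 2 genes of Okazaki fragment joining lay on opposite sides of 0. FEN1, the nuclease that trims the flap, measured 150, 160 and 140 CPM in PKI, against 170, 159 and 162 CPM in inPKI. LIG1, the ligase that seals the nick, measured 71.2, 75.8 and 69.2 CPM in PKI, against 70.4, 71.3 and 66.9 CPM in inPKI. Both overlapped: PKI B of FEN1 lay just above inPKI B, and PKI C of LIG1 lay below inPKI A and B. The log2 change was -0.12 ± 0.059 for FEN1 (95% interval -0.25 to 0.00) with a limma adjusted p of 0.369, and 0.050 ± 0.055 for LIG1 with a limma adjusted p of 0.714. Without PKI C that of FEN1 was -0.075 and that of LIG1 was 0.078.

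**Figure D4:**
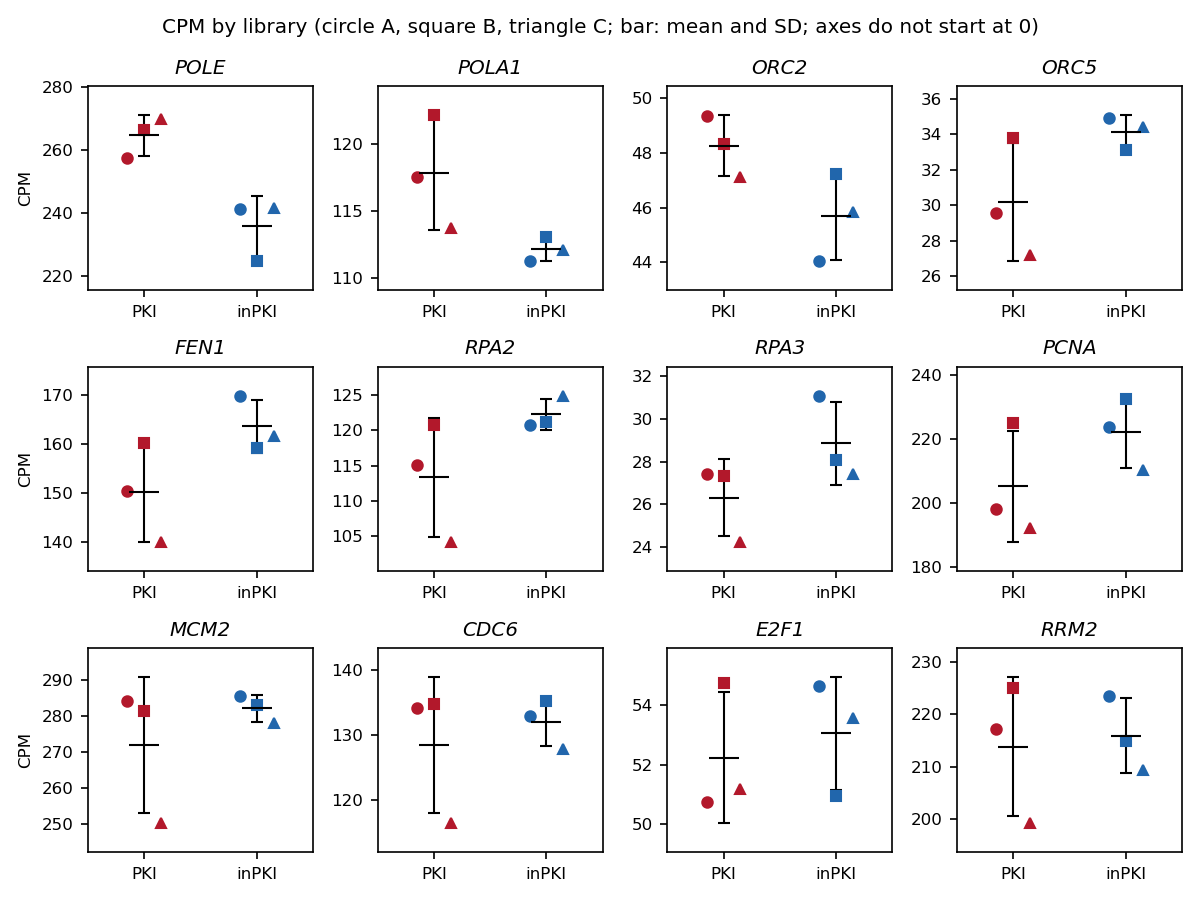
CPM in each library (circle A, square B, triangle C) for 12 replication genes, PKI left of inPKI, with the mean and SD of each group (n = 3); the axes do not start at 0. POLE has all PKI points above the inPKI points, while PKI C is the lowest of the 6 points for ORC5, FEN1, RPA2, RPA3, PCNA, MCM2, CDC6 and RRM2.

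Of the 3 genes that supply nucleotides 0 passed the test. RRM1, the large subunit of ribonucleotide reductase, measured 201, 215 and 185 CPM in PKI, against 212, 214 and 208 CPM in inPKI. RRM2, its small subunit, which accumulates in S phase, measured 217, 225 and 199 CPM in PKI, against 224, 215 and 209 CPM in inPKI. TYMS, thymidylate synthase, measured 100, 112 and 92.6 CPM in PKI, against 107, 106 and 101 CPM in inPKI. In each gene PKI B was above the 3 inPKI libraries and PKI C below them, so the PKI libraries spread across the inPKI range. The log2 changes were -0.082 ± 0.060 for RRM1, -0.015 ± 0.059 for RRM2 and -0.051 ± 0.065 for TYMS, with limma adjusted p-values of 0.563, 0.935 and 0.752. Without PKI C the log2 change of RRM1 was -0.025, and those of RRM2 and TYMS turned to 0.035 and 0.012.

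E2F1, the activating transcription factor of the G1 to S genes, measured 50.7, 54.8 and 51.2 CPM in PKI, against 54.6, 51.0 and 53.6 CPM in inPKI. The ranges nearly coincide, and the log2 change was -0.022 ± 0.057 with a limma adjusted p of 0.887, and -0.0083 without PKI C. UNG, the glycosylase that removes uracil from DNA, measured 88.0, 91.2 and 74.7 CPM in PKI, against 86.4, 88.0 and 90.1 CPM in inPKI. The log2 change of UNG was -0.064 with PKI C, its lowest library, and 0.022 without it. DTL, the substrate receptor that marks CDT1 for breakdown in S phase, averaged 101 ± 6.89 CPM in PKI and 98.6 ± 3.35 CPM in inPKI, and SLBP, which binds histone mRNA, averaged 74.9 ± 4.15 CPM in PKI and 75.5 ± 1.86 CPM in inPKI (SD, n = 3 each). The log2 change of DTL was 0.040 with PKI C and 0.096 without it.

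Across the 47 genes the log2 change ran with transcript length, as it did over all genes, but the 16 longest had a lower median than all tested genes of their length. The transcripts were 1.36 to 7.84 kb long, and POLE was the longest and PCNA the shortest. The Spearman correlation of log2 change with length was 0.376 over the 47 genes and 0.430 over 14242 tested genes with a length, as a description over genes that share the 6 libraries. The 16 shortest members (1.36 to 2.27 kb) had a median of -0.052 with 0 above 0, and the 2902 tested genes of that length had a median of -0.053. The 15 in the middle had a median of -0.017 where 3126 tested genes had -0.019. The 16 longest (3.44 to 7.84 kb) had a median of -0.037 with 5 above 0, where 5080 tested genes had 0.023. With trends of length and GC content removed, 28 of the 47 lay below 0 with a median of -0.018, beside 51.4% of all genes tested, and limma called 0 of the 47. The part of transcript length in the values of POLE or PCNA was not tested beyond this removal.

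**Figure D5:**
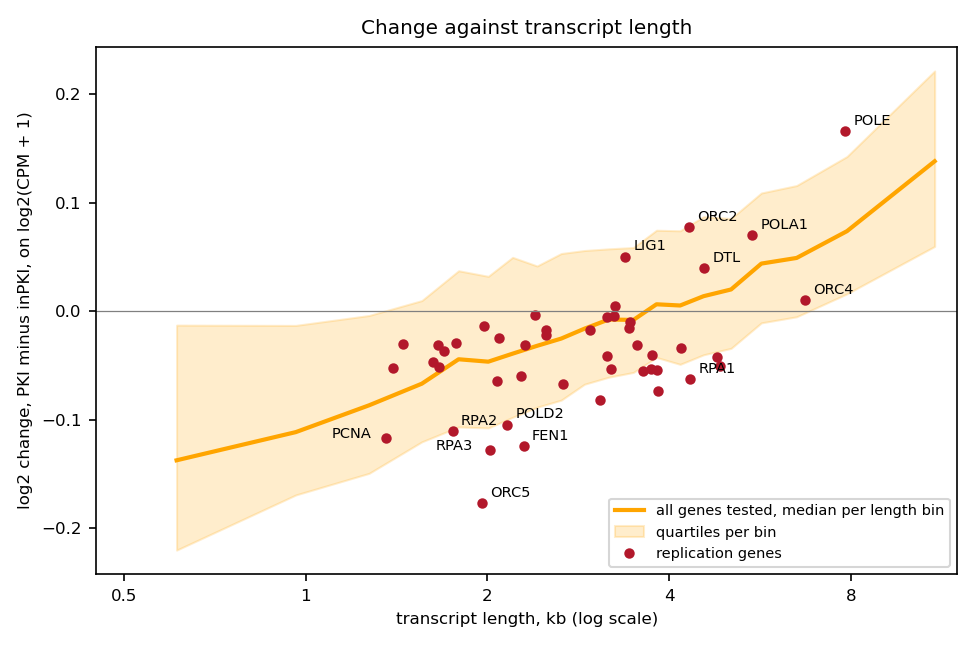
Log2 change (PKI minus inPKI) against transcript length in kilobases on a log axis for the 47 replication genes, with the median of all tested genes per length bin as a line and the quartiles as a band. The line climbs from -0.137 at 0.611 kb to 0.138 at 11.0 kb, and POLE at 7.84 kb and PCNA at 1.36 kb mark the ends of the members.

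Other genes of the replication pathway, listed by role, gave 0 calls with limma. Among 13 tested regulators of licensing and origin firing 1 lay higher and 0 lower at an unadjusted p below 0.05. This was TICRR, which helps load CDC45, at 66.3, 66.6 and 68.3 CPM in PKI, against 60.0, 55.9 and 57.3 CPM in inPKI. Among 25 genes of fork progression and chromatin 2 lay higher and 2 lower; ATAD5, which unloads PCNA, had the smallest p, with 45.8, 45.7 and 47.7 CPM in PKI, against 39.7, 40.8 and 38.2 CPM in inPKI. Neither gene had overlapping groups, and PKI C was the highest library for both. The log2 change was 0.21 ± 0.053 for TICRR and 0.23 ± 0.056 for ATAD5, each with a limma adjusted p of 0.127 and DESeq2 adjusted p-values of 0.0181 for TICRR and 0.0346 for ATAD5. Their transcripts are 6.78 kb and 6.87 kb long, and with the trends removed the log2 changes were 0.16 for each, beside 0.20 for TICRR and 0.21 for ATAD5 without PKI C.

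Among 16 further nucleotide genes 0 reached an unadjusted p below 0.05 in either direction. With all libraries 14 lay below 0, beside 52.6% of all genes tested, and without PKI C 6 did, beside 43.8%. DUT, the dUTPase, had the smallest p with a log2 change of -0.12 ± 0.062 and a limma adjusted p of 0.426. Among 29 genes of E2F, RB and the G1 to S transition 1 lay higher, CDK6, a cyclin D kinase, at 85.4 ± 1.62 CPM in PKI and 77.6 ± 0.994 CPM in inPKI (SD, n = 3 each). Its log2 change was 0.14 ± 0.050 with a limma adjusted p of 0.264, and 0.0011 with the length and GC trends removed. Among 15 genes of the replication checkpoint and repair 1 lay higher, BRCA2, at 35.0 ± 3.64 CPM in PKI and 28.9 ± 1.24 CPM in inPKI (SD, n = 3 each). The log2 change of BRCA2 was 0.27 ± 0.073, its limma adjusted p was 0.161, and 0.12 was left of the change once the length and GC trends were taken out.

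In the authors' deposited table, whose sign was turned so that positive means higher in PKI, the 47 genes had log2 fold changes from -0.17 to 0.18, with 36 below 0. The authors' deposited table called 14 genes at an adjusted p below 0.05 and 0 of the 47, whose smallest p was 0.129. Averaged over the 6 libraries, rows of pseudogenes with near-identical sequence, such as PCNAP3 and FEN1P1, held at most 0.183% of the parent gene's CPM.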

How the data were processed

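Libraries of mRNA from 6 HEK293 samples were grouped by title into PKI and inPKI, 3 each. Named without a role in the submitters' processing notes are the build hg19 and the tools RSEM 1.3.0, STAR 2.5.2b, DESeq2 1.20.0 and cutadapt 1.14. The authors deposited CPM values for 30960 genes, named as TMM-scaled RSEM values; the columns sum to 754299 to 785007. All of them (100%, tolerance 0.01 reads) were whole multiples of 1 read, worth 0.0333 to 0.0437 CPM, and reads were recovered from them. PCR duplicates cannot be told apart, so counting error is the least error. Per the file headers, the authors' deposited comparison holds p-values, a Wald statistic and a signed fold change (both scores), a mean signal named baseMean, and a log2 fold change. In all 30960 rows its log2 sign is opposite to its signed fold change, and it is opposite to the CPM in 100% of 172 genes that differ by over 0.5 (log2), so the sign was turned. In 2069 genes at 0 in all 6 columns its baseMean is above 0, and which samples or counts went into it is not stated.

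The test was limma 3.58.1 (R 4.3.3; empirical Bayes with a trend, 2-sided) on log2(CPM + 1), which understates changes of low genes, for genes with at least 1 CPM in at least 3 libraries, with Benjamini-Hochberg adjustment over all 14275 genes and a threshold of 0.05. An exact permutation test of 3 against 3 cannot go below 0.1. The alternatives, whose effect the closing section gives, were other pseudocounts, filters, scalings and limma settings, a replicate block, each library left out, removal of length and GC trends (lowess, span 0.3), and, on the recovered reads, DESeq2 1.42.0 or edgeR 4.0.16. DESeq2 gave no adjusted p for 7749 genes, POLE2 among them. Lengths, GC content and positions come from GENCODE 29 on GRCh38 (30795 identifiers matched; the longest principal coding transcript where one is marked). Named genes are MCM2, PCNA, CDC6, E2F1 and RRM2, the 12 members with the smallest p, the highest and lowest per kb in each role, and the gene with the smallest p in each other list. The members and lists were chosen with earlier results of these data known. The letters A, B and C did not pair the libraries.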

Additional observations from a re-analysis of the deposited data

How the results depend on the processing

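Of the 47 genes, 0 were called under every alternative run except DESeq2, which called 1 (POLE). Over all genes, 18 were called, and 4 without a filter on low values, 11 with equal column sums, 4 without a trend, 144 with sample weights, 253 with DESeq2 and 9 once length and GC trends were removed. Leaving out each library in turn gave 0 called members and 9 to 114 calls over all genes (37 without PKI A, 114 without PKI B, 46 without PKI C, 11 without inPKI A, 9 without inPKI B). The median of the 47 ran from -0.078 without PKI B to 0.026 without PKI C. Between 15 and 42 of the 47 lay below 0, the 15 being without PKI C and the 42 without PKI B. Sample weights left 24 below 0. The causes were not tested. Deviations of libraries with the same letter correlated at 0.017, 0.014 and 0.028, and each library correlated best with its own letter, a hint from the data only; with a replicate block 124 genes and 0 of the 47 were called. Pseudocounts of 0.25 and 5, a 5 CPM filter, median-ratio scaling and edgeR kept 40 of the 47 below 0. Of 486 values of 27 named members, 456 kept their sign and call, 1 (POLE, DESeq2) was newly called and 29 changed sign without a call. With 3 libraries a group, the 95% intervals of 46 of the 47 genes reach no further than 1.25-fold.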

Other observations

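Genes of G2 and mitosis, which follow replication in the cycle, lay on both sides of 0. Of 21 tested, limma called 0, 2 lay higher and 4 lower at an unadjusted p below 0.05, and 15 lay below 0. Of all genes tested 13.7% passed that unadjusted level and 52.6% lay below 0. Without PKI C 10 of the 21 lay below 0, beside 43.8% of all genes tested. DESeq2 called 3 of the 21, MKI67, CENPF and BIRC5, where it called 3.88% of all genes to which it gave an adjusted p. MKI67, the proliferation marker Ki-67, measured 365, 338 and 405 CPM in PKI, against 320, 297 and 309 CPM in inPKI, and CENPF, a kinetochore protein, measured 294, 305 and 335 CPM in PKI, against 276, 266 and 272 CPM in inPKI. BIRC5, the chromosomal passenger survivin, measured 137, 146 and 122 CPM in PKI, against 157, 152 and 148 CPM in inPKI, and PTTG1, securin, measured 72.2, 68.7 and 61.0 CPM in PKI, against 76.4, 75.1 and 78.9 CPM in inPKI. The groups of all 4 genes did not overlap, and PKI C was the extreme library each time. The log2 change of MKI67 was 0.25 ± 0.068 with a limma adjusted p of 0.157 and a DESeq2 adjusted p of 0.00447, 0.19 without PKI C and 0.11 with the length and GC trends removed. MKI67 and CENPF have transcripts of 12.7 kb and 10.3 kb, BIRC5 and PTTG1 of 2.63 kb and 1.07 kb; CENPF, BIRC5 and PTTG1 were singled out after their values were seen.

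Among 11 tested CDK inhibitors and related genes 0 reached an unadjusted p below 0.05 in either direction. CDKN1A, the inhibitor p21, which also binds PCNA, measured 22.3, 20.9 and 20.4 CPM in PKI, against 18.5, 17.3 and 20.9 CPM in inPKI. The groups overlapped, and the log2 change was 0.16 ± 0.078 with a limma adjusted p of 0.391.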
